A study of Mus musculus with 138 samples.

Results

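Lsr, Ptgds and 4932438H23Rik are 3 of the 25900 genes counted in mouse embryos at the 2-cell stage. They were chosen by their measured rise after maternal deletion of Smarca5, from near 0 counts in wild-type embryos. The contrast of deletion with wild type is therefore given as a description, with no test, and supports nothing about them. The other comparisons, among embryos depleted of SMARCA5 protein after fertilization and between collections of deletion embryos, were not used in the choice. The name "present only after maternal deletion" went against the data for all 3: at more than 3 counts, the limit called detected here, Lsr was found in 13 of 15 uninjected embryos, Ptgds in 5 of 15, and 4932438H23Rik in 6 of 20 embryos injected with IgG.

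SMARCA5, also called SNF2H, is the motor subunit of the ISWI chromatin remodellers, which slide and space nucleosomes. An egg is stocked with transcripts made during its growth, and most of them are cleared around the 2-cell stage, when the genome of the embryo becomes active. A transcript found in a 2-cell embryo can thus be left from the egg or newly made, and a count does not tell these apart. Lsr encodes angulin-1, a membrane protein of the tricellular corners of epithelial junctions that is also known as the lipolysis-stimulated lipoprotein receptor. Ptgds encodes the lipocalin-type prostaglandin D2 synthase, which converts prostaglandin H2 to prostaglandin D2 and also carries small lipophilic molecules. 4932438H23Rik is annotated as protein-coding, and its name is a clone identifier.

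Each library holds polyadenylated RNA of 1 embryo, prepared by scNMT-seq, a protocol that also yields methylation and accessibility data for that embryo. Embryos labelled Smarca5 +/- came from mothers with a Smarca5 maternal knockout and wild-type fathers, per the design text, and are called maternal deletion. Embryos labelled Smarca5 +/+ are called wild type, although the titles of both groups name matKO females, so maternal loss and the genotype of the embryo cannot be told apart. The TrimAway groups were wild-type embryos, not injected, injected with IgG, or injected at the zygote stage with an antibody to SMARCA5 that the ubiquitin ligase TRIM21 uses to send the protein to degradation. They were collected at least 24 hours after injection. A replicate number names a pool of embryos from several matings or injections, which the submitters call technical replicates. The p-values below treat embryos as replicates and so measure the spread between embryos of these pools. Age and strain of the animals, and the promoter of the deleting Cre, are not given in the sources used here.

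After libraries with under 100000 counts were left out, 22 wild-type, 28 deletion, 15 uninjected, 20 IgG and 31 anti-SMARCA5 libraries remained, 116 of 135 embryos. Their median totals were 545264, 1618485, 1460667, 1708008 and 1481635 counts, so wild-type libraries were the shallowest. The targeted gene, Smarca5, ranged from 158 to 839 CPM (counts per 1000000 of a library's total) in wild type and from 2.99 to 349 CPM in deletion embryos. A library holds a whole embryo, so fewer cells of a type and less RNA per cell cannot be told apart. The upper value belonged to deletion well A04 of replicate 2, which also had the lowest Gdf9 level of its group, 24.5 against at least 881 CPM in the others of that group. Wild-type wells G05 and H05 of replicate 2 had Smarca5 levels of 158 and 209 CPM, the lowest and the third lowest of their group, and its highest levels of Gdf9, a growth factor of the oocyte, at 645 and 350 CPM. In 1 anti-SMARCA5 library, well C02 of replicate 2, Trim21 was at 0 counts. Detected shares in deletion and wild-type libraries are given with and without wells A04, G05 and H05. For Ptgds the overlap of levels is also given without G05 and H05, and the deletion change without all 3. Other values, the gene lists included, keep these wells. Leaving out well C02 changed no call of the 3 genes in either anti-SMARCA5 comparison. The defining embryo transcripts of the 2-cell stage, 29 genes in the tables, summed to a median of 3631 CPM in wild type, 2609 in uninjected, 3213 in IgG, 2523 in anti-SMARCA5 and 557 in deletion libraries.

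The genes lie on 3 chromosomes. Lsr (ENSMUSG00000001247) spans chromosome 7, positions 30957409 to 30983169 on the minus strand of GRCm38 in the tables. Ptgds (ENSMUSG00000015090) spans chromosome 2, positions 25466709 to 25470046, also on the minus strand. 4932438H23Rik (ENSMUSG00000039851) spans chromosome 16, positions 91053935 to 91095122 on the minus strand. GENCODE M21 gives 5, 5 and 3 transcripts for them. The sequence just before each RefSeq start site (RefSeq, build GRCm38.p6) is shown because the 3 genes were chosen for 1 shared pattern and a reader may compare what precedes their starts. Of the 250 bases before each start, the longest run outside GENCODE exons is printed, 5′ to 3′ on the strand of the gene, with matches to GGGCGG and CANNTG on either strand in capitals. The runs lie at chr7:30973470-30973719, chr2:25469843-25469999 and chr16:91069153-91069402, all minus strand.
Lsr: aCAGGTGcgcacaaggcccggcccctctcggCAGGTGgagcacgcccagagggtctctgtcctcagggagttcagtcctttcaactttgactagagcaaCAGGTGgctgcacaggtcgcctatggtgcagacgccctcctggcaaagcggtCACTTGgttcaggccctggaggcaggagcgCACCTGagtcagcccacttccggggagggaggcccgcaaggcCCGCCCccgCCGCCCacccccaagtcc
Ptgds: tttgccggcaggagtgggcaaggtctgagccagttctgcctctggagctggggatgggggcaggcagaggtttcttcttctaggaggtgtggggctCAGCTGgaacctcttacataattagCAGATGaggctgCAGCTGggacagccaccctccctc
4932438H23Rik: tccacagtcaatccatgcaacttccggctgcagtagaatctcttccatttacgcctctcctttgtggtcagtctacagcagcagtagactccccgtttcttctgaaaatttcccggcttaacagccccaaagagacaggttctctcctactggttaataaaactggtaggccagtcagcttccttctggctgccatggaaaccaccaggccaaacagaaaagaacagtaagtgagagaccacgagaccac

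These stretches had little in common. Over the whole 250 bases, G and C made up 66.8% of the Lsr window, 58.4% of that of Ptgds and 49.2% of that of 4932438H23Rik, against a median of 52.4% over 32851 RefSeq windows of the same length. CpG dinucleotides numbered 13, 2 and 5, against a median of 6. The letters GGGCGG, the core of a GC box, occurred 2 times before Lsr and 0 times before the others, and 32.7% of all windows held them. The E-box letters CANNTG occurred 5, 3 and 0 times, with 66.2% of all windows holding at least 1. TATAAA (12.4% of windows), CCAAT (33.8%), TAATTG (7.17%) and GGATTA (6.25%) were searched on both strands too and were in none of the 3. A match is a description of letters, and a missing one says only that they are not in this window. In GENCODE M21 the window of 4932438H23Rik lies inside the gene, since its longest transcript starts further upstream. The window of Ptgds lies inside its gene as well, which GENCODE extends to position 25470046. Of that window 93 bases are in exons, so the printed run of 157 bases does not reach the RefSeq start site.

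In deletion embryos, Lsr and Ptgds were detected almost without exception, whereas 4932438H23Rik was missing from a part of them. Lsr was detected in 27 of 28 deletion libraries (96.4%, exact 95% interval over libraries 81.7% to 99.9%) and in 2 of 22 wild-type libraries (9.09%, 1.12% to 29.2%). Ptgds was detected in 28 of 28 deletion libraries (100%, 87.7% to 100%) and in 2 of 22 of wild type. 4932438H23Rik was detected in 19 of 28 deletion libraries (67.9%, 47.6% to 84.1%) and in 1 of 22 of wild type (4.55%, 0.115% to 22.8%). Without well A04 the deletion counts were 26 of 27, 27 of 27 and 19 of 27, and without wells G05 and H05 the wild-type counts were 2, 0 and 1 of 20.

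**Figure D1:**
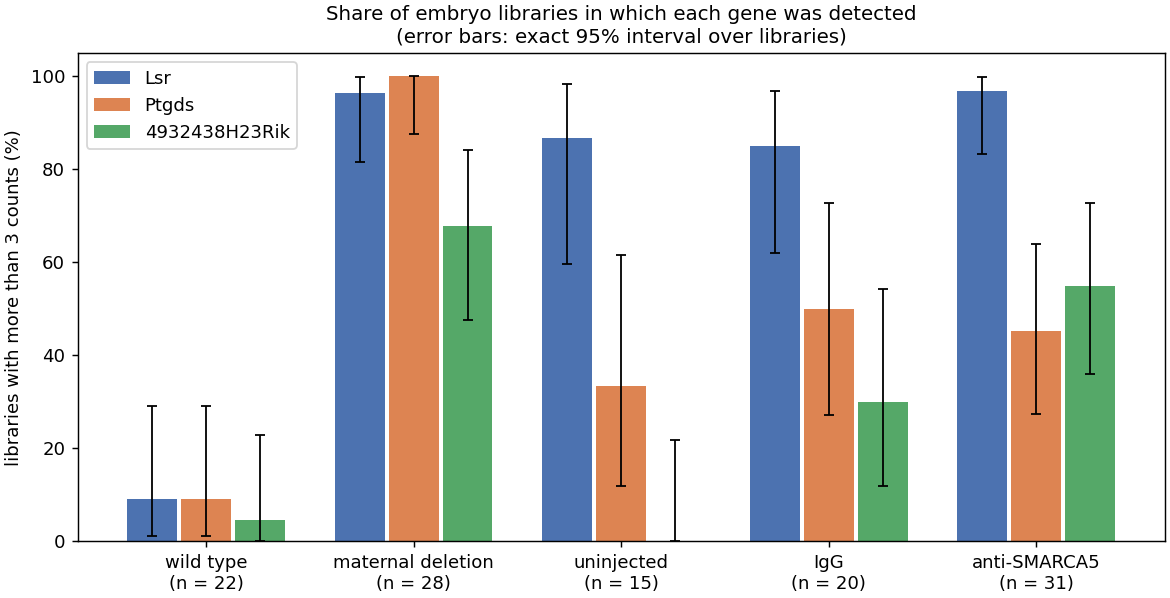
Share of embryo libraries, in percent, with more than 3 counts of Lsr, Ptgds and 4932438H23Rik, by group, with the exact 95% interval over libraries as error bars. Lsr was detected in 86.7% of uninjected, 85% of IgG and 96.8% of anti-SMARCA5 libraries but in 9.09% of wild-type libraries, while 4932438H23Rik was detected in 0% of uninjected and 54.8% of anti-SMARCA5 libraries.

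The wild-type libraries with any count of a member were few and held few counts. For Lsr they were well A07 with 7 counts, G07 with 5, C07 with 1 and, in replicate 2, H05 with 3. For Ptgds they were F07 and C07 with 1 count each and, in replicate 2, G05 with 15 and H05 with 14, the wells with the highest Gdf9 of wild type. For 4932438H23Rik the 1 library was well B07, with 11 counts. In the deepest wild-type library, well D02 of replicate 2, 12004992 counts held 0 of each gene, which allows a level of up to 0.25 CPM from counting error alone. Of the 13 wild-type libraries with at least 500000 counts, Lsr was detected in 1, Ptgds in 2 and 4932438H23Rik in 1.

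Lsr, the tricellular junction protein, had the highest median of the 3 in deletion embryos. Its level ranged from 0 through a median of 68.4 to 210.4 CPM over 28 deletion libraries (mean 77.7 ± 58.0 CPM, SD, n = 28) and from 0 through a median of 0 to 23.3 CPM over 22 wild-type libraries (mean 1.67 ± 5.09, SD, n = 22). The groups overlapped in the 5 deletion libraries that did not exceed the highest wild-type one. In the TrimAway experiment the level ranged from 0 through 10.9 to 28.1 CPM in 15 uninjected embryos, from 0 through 10.1 to 30.1 CPM in 20 IgG embryos, and from 0.995 through 15.9 to 141.9 CPM in 31 anti-SMARCA5 embryos. By medians the order was deletion, anti-SMARCA5, uninjected, IgG and wild type, and the 3 TrimAway groups overlapped, with anti-SMARCA5 libraries at 30.6, 37.8, 42.0 and 141.9 CPM lying above every library of both other groups. Lsr was thus measured in most embryos of a wild-type background in the TrimAway experiment and in few of those labelled wild type in the deletion experiment. The 2 experiments were deposited in separate tables and sequenced on other lanes, so this gap was not tested, and experiment and level cannot be told apart.

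The gap was also present at equal depth. Thinned to 100000 counts per library, Lsr kept at least 1 count in 12 of 15 uninjected, 9 of 20 IgG and 18 of 31 anti-SMARCA5 libraries, against 1 of 22 wild-type and 25 of 28 deletion libraries.

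Ptgds, the prostaglandin D2 synthase, spread furthest among deletion embryos. Its level ranged from 6.19 through a median of 42.2 to 434.2 CPM in deletion libraries (mean 84.9 ± 96.9, SD, n = 28) and from 0 through 0 to 24.4 CPM in wild type (mean 1.80 ± 5.39, SD, n = 22). The highest wild-type value, of well H05, was exceeded by 20 of 28 deletion libraries. The groups overlapped through wells G05 and H05 alone. Without them the highest wild-type library was F07 at 4.81 CPM (1 count), below every deletion library. In TrimAway embryos it stayed low: 0 through 0.927 to 5.68 CPM in uninjected, 0 through 2.24 to 7.13 CPM in IgG and 0 through 1.73 to 10.9 CPM in anti-SMARCA5 libraries. No TrimAway library of the 66 reached 24.4 CPM, the level of well H05, but the highest library of each TrimAway group lay above 4.81 CPM. It was detected in 5 of 15 uninjected (33.3%), 10 of 20 IgG (50%) and 14 of 31 anti-SMARCA5 libraries (45.2%). These shares rest on few counts: with more than 10 counts asked for, they fell to 0, 2 and 4 libraries.

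4932438H23Rik differed from the others in being near 0 in uninjected embryos. In deletion libraries it ranged from 0 through a median of 23.9 to 102.3 CPM (mean 29.9 ± 28.6, SD, n = 28), and in wild type it was 0 in 21 of 22 libraries and 7.02 CPM in the other. In uninjected embryos it was 0 in 13 of 15 libraries and at 1 count in the other 2. A detected share of 0 of 15 allows a share of up to 21.8% of embryos by the exact interval. In IgG embryos it ranged from 0 through 0 to 24.0 CPM and was detected in 6 of 20 (30%, 11.9% to 54.3%). In anti-SMARCA5 embryos it ranged from 0 through 3.02 to 61.7 CPM and was detected in 17 of 31 (54.8%, 36.0% to 72.7%). Of the 31 anti-SMARCA5 libraries, 3 lay above the deletion median, namely H06 and A07 of replicate 1 and A02 of replicate 2, at 61.7, 35.2 and 32.2 CPM, and 8 were at 0.

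**Figure D2:**
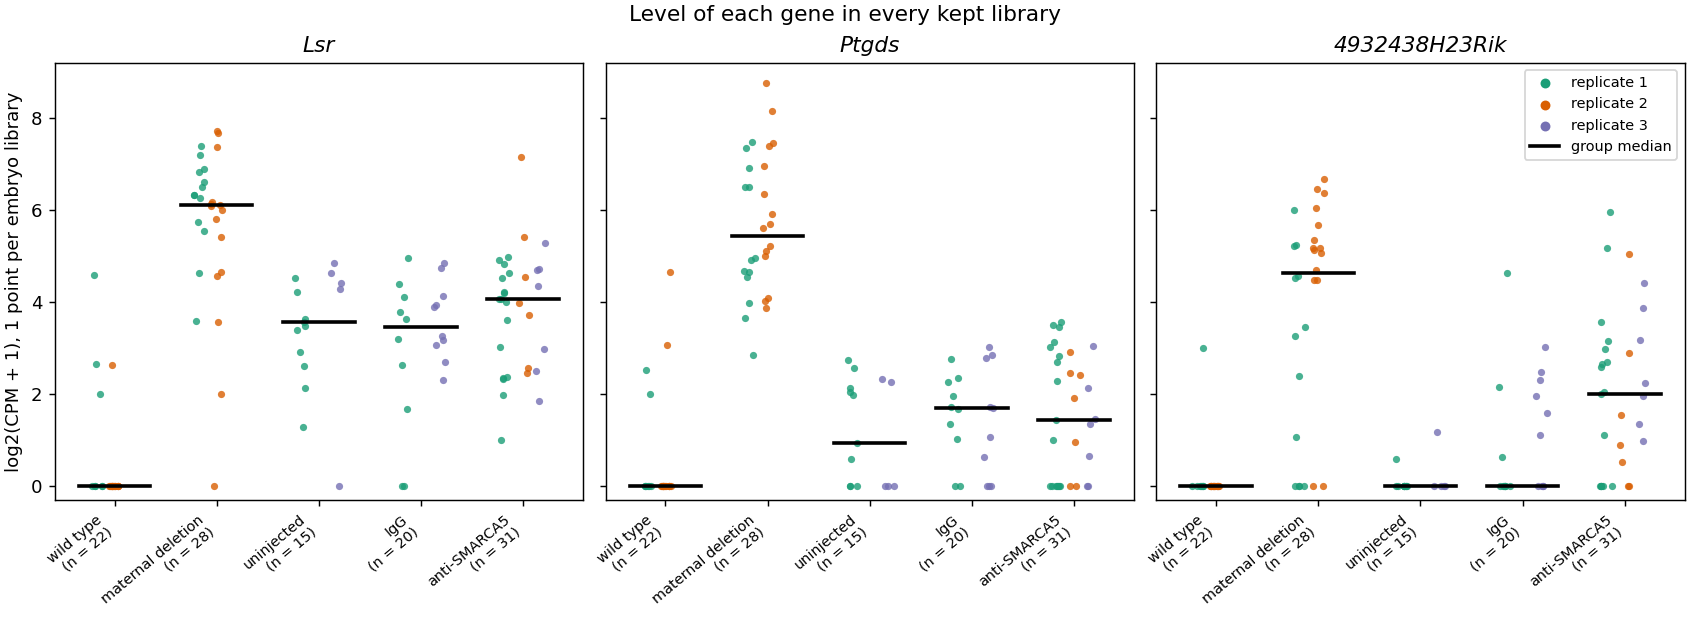
Level of Lsr, Ptgds and 4932438H23Rik on the log2(CPM + 1) scale, 1 point per library, coloured by replicate number, with the group median as a bar. Lsr sits at medians of 10.1 to 15.9 CPM in the TrimAway groups and 68.4 CPM in deletion embryos, and 4932438H23Rik splits the deletion group into 6 libraries at 0 and a cloud around its median of 23.9 CPM.

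The size of the rise in the contrast that chose the genes was fitted with edgeR for description only. The log2 fold change of deletion against wild type was 6.20 (SE 0.78) for Lsr, 5.83 (SE 0.75) for Ptgds and 5.83 (SE 0.91) for 4932438H23Rik. Of 8518 genes in that fit, 30.3% were called higher and 26.4% lower at an adjusted p under 0.05, so a call in it is common, and nothing is read from the 3. The sizes depend on the few wild-type counts: without well B07 the value of 4932438H23Rik was 9.40, without wells A04, G05 and H05 that of Ptgds was 9.63, and without replicate 1 those of Lsr and 4932438H23Rik were 8.88 and 10.5.

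Whether embryos depleted of SMARCA5 only after fertilization show the genes was asked of the TrimAway groups. 4932438H23Rik was called higher than in uninjected embryos both in anti-SMARCA5 and in IgG embryos. It was not called in anti-SMARCA5 against IgG embryos. The edgeR fits reported here called neither Lsr nor Ptgds in any of the 3 TrimAway comparisons. For Lsr against uninjected embryos, 3 alternatives did make a call: DESeq2 (1.12, adjusted p = 0.0237), edgeR on all libraries with a count (1.14, adjusted p = 0.0437) and edgeR without replicate 3 (1.51, adjusted p = 0.0421). Lsr passed the low-count filter of these fits. Ptgds and 4932438H23Rik did not, and their values come from the same fits without that filter. The 3 comparisons share libraries, so their values stand side by side and are not independent.

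Anti-SMARCA5 against IgG compares 2 injected groups, although 12 of 20 IgG libraries, among them all 10 of replicate 1, held no Trim21 RNA. Lsr was 0.95 higher on the log2 scale (SE 0.39, interval 0.19 to 1.71, adjusted p = 0.116 with edgeR). In this fit 3.03% of 10447 genes were called, 317 in all. Ptgds changed by 0.51 (interval -0.71 to 1.74, adjusted p = 0.594) and 4932438H23Rik by 1.69 (interval 0.25 to 3.13, adjusted p = 0.109), in a fit without the filter that called 13.5% of 22374 genes. The value of 4932438H23Rik was 2.44 (adjusted p = 0.0182) without 1 IgG library, well A10 of replicate 1, whose 24.0 CPM was far above the next IgG library at 7.20 CPM. Without the highest anti-SMARCA5 library, well H06 of replicate 1, it was 1.25 (adjusted p = 0.232). The value of Lsr was 0.69 (adjusted p = 0.221) without anti-SMARCA5 well D02 of replicate 2, its highest library. Over all alternatives the adjusted p of Lsr ranged from 0.0538 to 0.387 and that of 4932438H23Rik from 0.0182 to 0.354.

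Against uninjected embryos, anti-SMARCA5 libraries held more 4932438H23Rik, by 5.98 on the log2 scale (SE 0.98, adjusted p = 0.000399 with edgeR), detected in 17 of 31 against 0 of 15. The fit without a filter called 27.9% of 22164 genes, and the filtered fit 27.9% of 10750, so a call was common here as well. The uninjected group held 2 counts of the gene among 21059854, so the size is poorly bounded: the pooled levels were 9.31 and 0.095 CPM, a ratio of 98.0 with an exact counting interval of 27.0 to 812. The call was lost without replicate 1 (4.83, adjusted p = 0.127), which leaves 5 uninjected embryos. That fit called 0 of 20969 genes. Lsr was at 1.09 (SE 0.45, interval 0.21 to 1.97, adjusted p = 0.0608) and Ptgds at 1.01 (interval -0.43 to 2.45, adjusted p = 0.293). Scaling by total counts moved the median change of all genes from 0.13 to -0.29 and left Lsr at 0.66 (adjusted p = 0.276). It also moved the calls from 1885 higher and 1114 lower to 409 and 1874.

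IgG against uninjected embryos compares embryos injected with IgG with embryos not injected. Injection and IgG cannot be told apart in it, and some IgG libraries also held Trim21 RNA. The filtered fit called 0% of 9915 genes with edgeR, with 1440 at an unadjusted p under 0.05, and DESeq2 called 267. Lsr was at 0.14 (interval -0.70 to 0.99, adjusted p = 0.905), and the sign was negative with total counts only. Ptgds was at 0.48 (interval -0.94 to 1.89, adjusted p = 0.772) in a fit without the filter that called 4.2% of 20956 genes. In that fit 4932438H23Rik was at 4.29 (SE 1.02, adjusted p = 0.0404), from 112 counts in 20 IgG libraries against 2 in 15 uninjected, a pooled ratio of 33.2 with a counting interval of 8.99 to 278. This call was lost without well A10 (3.50, adjusted p = 0.0504), without replicate 1 (3.34), without replicate 3 (4.83) and with at least 500000 counts per library (4.35). In that order, those fits called 266 of 20695, 0 of 19777, 3 of 19770 and 0 of 20931 genes. Among the IgG embryos Trim21 RNA was at 0 in all 10 of replicate 1 and detected in 8 of 10 of replicate 3. 4932438H23Rik was detected in 2 and 4 of these 10.

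**Figure D3:**
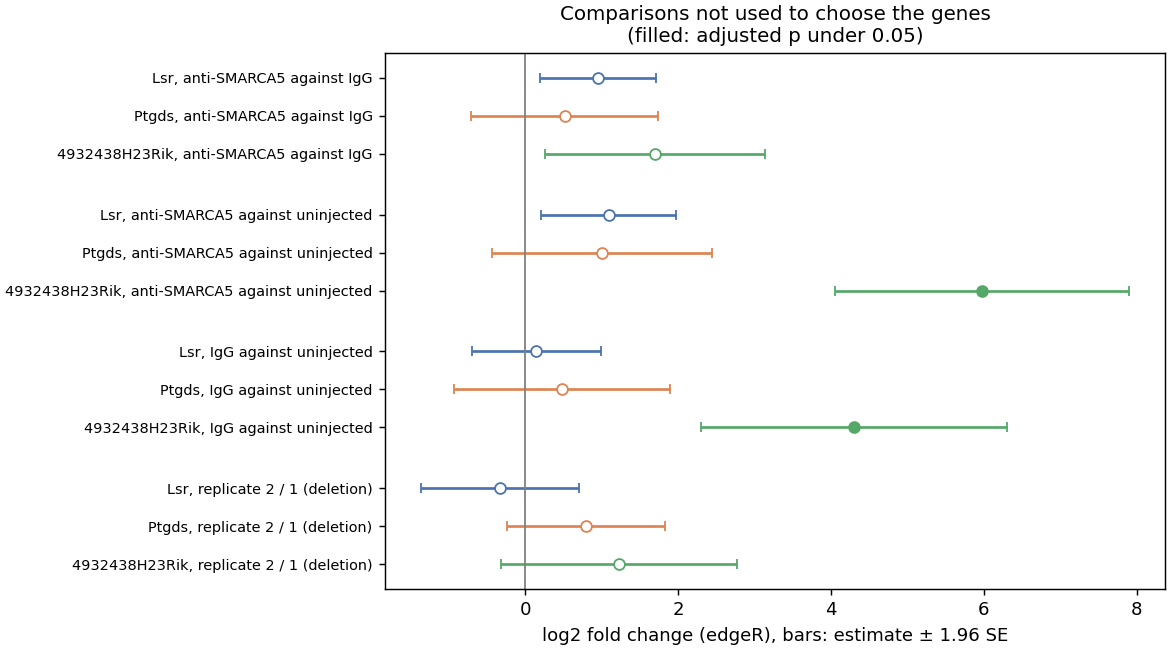
Log2 fold change of each gene in the 4 comparisons that were not used to choose them, as the edgeR estimate with its 95% interval, with filled points for an adjusted p under 0.05. Both filled points are 4932438H23Rik against uninjected embryos, at 5.98 in anti-SMARCA5 and 4.29 in IgG embryos.

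Embryos that carried 1 of the genes did not always carry the others. All 3 were detected in 19 of 28 deletion, 10 of 31 anti-SMARCA5 and 4 of 20 IgG libraries, and in 0 of 15 uninjected and 0 of 22 wild-type libraries. Lsr and Ptgds were detected together in 27 deletion, 14 anti-SMARCA5, 10 IgG and 5 uninjected libraries, and in 0 of wild type. In wild type 17 of 22 libraries had none of the 3 and the other 5 had 1 each.

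**Figure D4:**
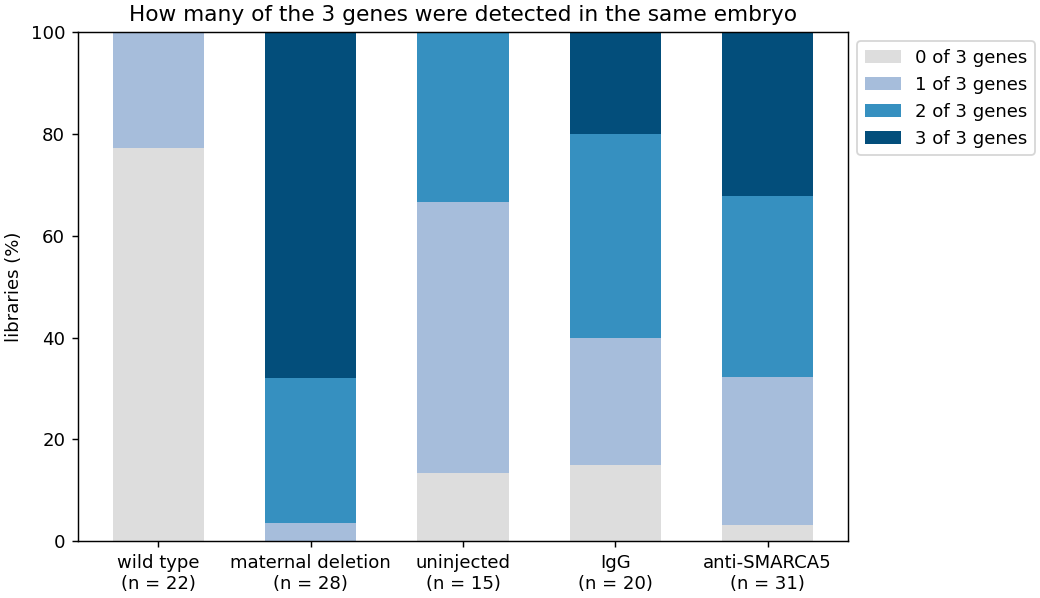
Percent of libraries in each group with 0, 1, 2 or 3 of the genes above 3 counts in the same embryo. Deletion embryos hold 3 in 19 of 28 libraries and 0 in none, wild-type embryos hold 0 in 17 of 22, and the TrimAway groups lie between, with all 3 in 10 of 31 anti-SMARCA5 libraries.

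Within deletion embryos the 3 genes did not rise and fall together. After each replicate's mean of log2(CPM + 1) was subtracted, Pearson's r over the 28 libraries was -0.22 for Lsr and Ptgds, 0.21 for Lsr and 4932438H23Rik and 0.16 for Ptgds and 4932438H23Rik, given as descriptions over libraries that share depth and collection. Well D03 of replicate 2 shows the contrast in 1 embryo: of 7236695 counts, 2047 were Ptgds, 0 were Lsr and 0 were 4932438H23Rik. In well F03 of the same replicate, Ptgds and 4932438H23Rik were at the top of the group, 434.2 and 102.3 CPM, and Lsr was at 2.99 CPM. Well A04, whose Smarca5 and Gdf9 levels went against its label, held 131 counts of Lsr (41.7 CPM), 43 of Ptgds (13.7 CPM) and 0 of 4932438H23Rik among 3141872.

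No difference between the collections of deletion embryos was called for any of the 3. Replicate 2 against replicate 1 gave log2 fold changes of -0.33 (interval -1.37 to 0.71, edgeR adjusted p = 0.745) for Lsr, 0.79 (-0.25 to 1.83, adjusted p = 0.358) for Ptgds and 1.22 (-0.31 to 2.76, adjusted p = 0.335) for 4932438H23Rik, in a fit that called 11% of 8165 genes. These intervals leave room for differences of over 2-fold. 4932438H23Rik was detected in 6 of 13 libraries of replicate 1 and 13 of 15 of replicate 2, whose median totals were 702651 and 4686051 counts. Collection, lane and depth cannot be told apart here.

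The gene next to 4932438H23Rik followed it library by library. 4931406G06Rik, annotated as an antisense transcript at positions 91044656 to 91056677 of chromosome 16 on the plus strand, shares 729 exonic bases with it, 25.4% of the exonic bases of 4932438H23Rik. Its medians were 18.2 CPM in deletion embryos, 1.87 in anti-SMARCA5 and 0 in wild type, IgG and uninjected embryos, with detection in 18 of 28 deletion and 13 of 31 anti-SMARCA5 libraries. Within deletion embryos r between the pair was 0.93 on the scale above, the highest of 8491 genes. The strand handling of the counts is not given in the sources used here, and RefSeq lists 4931406G06Rik as another name of the same gene, so reads of the 2 entries cannot be told apart.

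**Figure D5:**
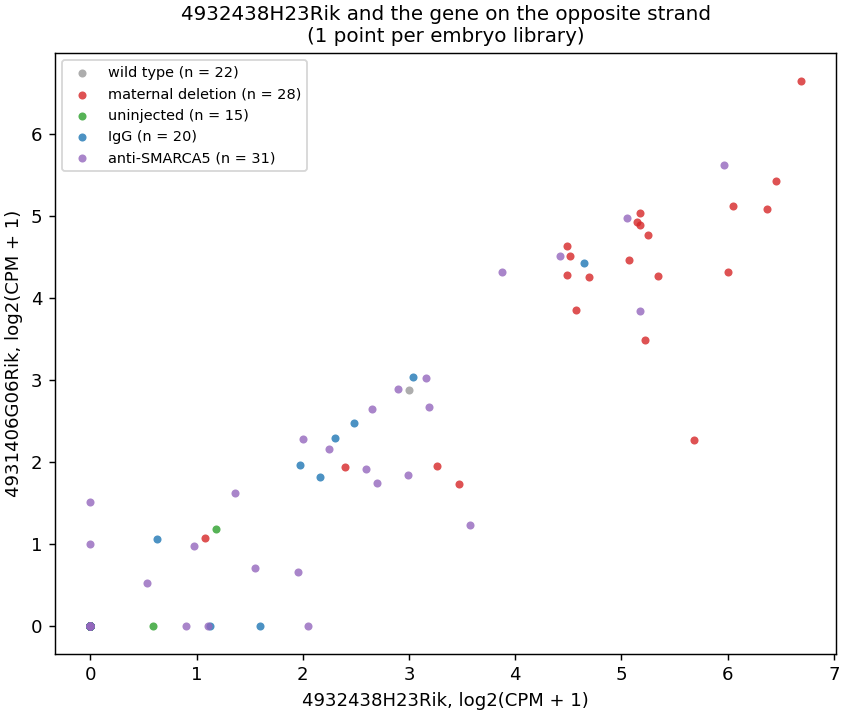
Level of 4932438H23Rik (horizontal axis) and of 4931406G06Rik on the opposite strand (vertical axis), both as log2(CPM + 1), 1 point per library, coloured by group. The points rise together in the deletion and the anti-SMARCA5 groups, and wild-type and uninjected libraries lie at or near 0 on both axes apart from 1 wild-type library.

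The other neighbours were mixed, and several near Lsr were detected in more deletion than wild-type libraries. In the tables Lsr overlaps Fam187b on the opposite strand by 9366 bases, though the GENCODE M21 exons of the pair share none, and Fam187b was detected in 19 of 28 deletion and 4 of 22 wild-type libraries. Lsr also shares 25 exonic bases with Gm17077, at medians of 1.34 CPM in deletion embryos and 0 elsewhere. Gm17077 was detected in 7 of 28 deletion and 0 of 22 wild-type libraries. Hamp, which does not overlap Lsr, was detected in 15 of 28 deletion and 0 of 22 wild-type libraries. Fxyd1, Fxyd7 and Ffar1 were detected in no library of either group. Of the 13 neighbours of Lsr within 100 kb, 1 was tested after deletion and was called higher, in a fit that called 30.3% of all genes higher and 26.4% lower. It was Usf2, a transcription factor of the helix-loop-helix class (log2 fold change 3.44, edgeR adjusted p = 6.05e-05), detected in 26 of 28 deletion and 4 of 22 wild-type libraries. Around Ptgds, 4 of 13 were tested: Fbxw5 was called higher (2.74), and Edf1 (-3.70), Traf2 (-2.48) and 2010317E24Rik (-3.79) lower. Abca2 was not tested and was detected in 19 of 28 deletion and 2 of 22 wild-type libraries. Fbxw5 was also called higher in anti-SMARCA5 against uninjected embryos (0.97, adjusted p = 0.0452), and Edf1 and Traf2 lower (-1.75 and -1.13, adjusted p = 0.00378 and 0.0153). That fit called 17.5% of all genes higher and 10.4% lower. Around 4932438H23Rik, 2 of 6 were tested after deletion and Synj1 was called higher (0.84), while Gcfc1 was at -0.55 and not called. In anti-SMARCA5 against uninjected embryos both were called higher, Synj1 by 0.63 (adjusted p = 0.0155) and Gcfc1 by 1.16 (adjusted p = 0.0202).

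The genes most like each member over all 116 libraries each had a higher median in deletion than in wild-type embryos. The members were chosen for that difference, and the ranking over all libraries includes the deletion and wild-type ones. Such a ranking favours genes with the same difference, so these higher medians follow from the choice and nothing is read from them. By Spearman's rho across libraries, which share group, depth and collection, the 5 nearest to Lsr among 8916 genes were Cpa1 (0.75), Sdc1 (0.75), Cd7 (0.73), Tmem150a (0.73) and Nceh1 (0.73). Those nearest to Ptgds were Gdf9 (0.78), Nceh1 (0.74), Shisa5 (0.73), 9530068E07Rik (0.72) and Zar1 (0.72). Gdf9 and Zar1 are transcripts of the growing oocyte, and their medians were 4377 and 341 CPM in deletion against 52.0 and 2.74 CPM in wild type. Those nearest to 4932438H23Rik were Rnf170 (0.69), Nr2e1 (0.68), St3gal6 (0.68), Ccni (0.68) and Zbtb38 (0.67). Within deletion embryos alone, with replicate means removed, other genes came first: 1810037I17Rik (r = 0.88), Gm14091 (0.86) and D2Ertd750e (0.84) for Lsr, Zdhhc3 (0.76), Krt71 (0.75) and Gpx3 (0.74) for Ptgds, and, after 4931406G06Rik, Mfap3l (0.70) and Adam7 (0.67) for 4932438H23Rik.

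Most transcripts of an oocyte list were higher after deletion too. Of 42 such genes in the tables, 37 were tested, 28 were called higher and 1 lower, with a median log2 change of 1.83 against 0.18 over all tested genes. Of all genes in that fit, 30.3% were called higher and 26.4% lower. Their summed level ranged from 12121 to 65463 CPM in deletion and from 6043 to 55401 CPM in wild-type libraries, with medians of 40281 and 21255 CPM. The largest changes were those of Plat (6.08), Gdf9 (5.81), Zar1 (5.63) and H1foo (4.83). Their part in the result for the 3 genes was not tested. Of the 36 tested against IgG in anti-SMARCA5 embryos, 1 was called higher, Kit (0.66; not called with total counts only), where 1.73% of genes were called higher and 1.3% lower. Against uninjected embryos 14 of 37 were called higher and 1 lower, where 17.5% and 10.4% of genes were, and with total counts only 3 and 1.

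Markers of other cells that a well could hold were counted in the same libraries. Beside their counts stand the shares of all genes tested after deletion, 30.3% called higher and 26.4% lower. Of 26 cumulus and granulosa markers, 3 were tested after deletion, 0 were called higher and 2 lower, Amhr2 and Nr5a2, and the summed level had medians of 73.7 CPM in deletion and 153 CPM in wild-type libraries, with ranges of 16.4 to 413 and 46.6 to 505 CPM. Ptx3, Lhcgr, Inha, Inhbb and Nr5a1 of this list were detected in no deletion library. Of the 26, 21 were detected in at least 1 deletion library and 10 in at least 1 wild-type library. Foxl2 and Fshr were detected in 3 of 28 deletion libraries each and Cyp19a1 in 11 of 28, against 0 of 22 wild-type libraries for each of the 3, so these moved in the direction of the members, and their part in the result was not tested. Of 13 sperm markers, 1 was tested, Odf2, and was called higher, with medians of 150 CPM in deletion and 56.8 CPM in wild type. Their summed level ranged from 32.5 to 311 CPM in deletion and from 14.5 to 439 CPM in wild type. Prm1 and Tnp1 were detected in no deletion library, and in 1 and 0 of 22 wild-type libraries. Prm2 and Tnp2 were detected in 9 and 3 of 28 deletion libraries and in 0 of 22 of wild type. Of the 13 sperm markers, 9 were detected in at least 1 deletion library and 4 in at least 1 wild-type library. Of 13 oviduct markers, 1 was tested and not called (without replicate 1, 2 were tested and both were called higher), and their summed level ranged from 25.3 to 1647 CPM in deletion and from 5.59 to 140 CPM in wild type. The oviductal glycoprotein Ovgp1 was detected in 15 of 28 deletion and 6 of 22 wild-type libraries and reached 1292 CPM in 1 of the former, and the part of such cells in the result was not tested. The ciliated-cell factor Foxj1 was detected in no deletion library and in no wild-type library. Of the 13 oviduct markers, 12 were detected in at least 1 deletion library and 11 in at least 1 wild-type library.

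Besides Lsr, 25 genes of angulins and of tricellular or tight junctions were in the tables. After deletion 16 were tested, 6 were called higher and 1 lower, with a median of 0.69, where 30.3% of all tested genes were called higher and 26.4% lower with a median of 0.18. Ildr1, the angulin-2 gene (3.42), the junctional adhesion molecule Jam2 (2.39) and the cingulin relative Cgnl1 (2.08) were higher and the claudin Cldn6 (-3.18) was lower. Ildr1 had medians of 15.4 CPM in deletion and 0 in wild type, and like Lsr it was not silent in TrimAway controls, at 2.60 CPM in uninjected embryos. Against IgG, 0 of 18 were called in edgeR, where 3.03% of all genes were. Against uninjected embryos, 5 of 19 were called higher and 1 lower (17.5% and 10.4% of all genes). Ildr1 was among the higher ones, at 2.02 (edgeR adjusted p = 0.0308). With total counts only, 1 was called higher and 2 lower, and Ildr1 was not called (1.42, edgeR adjusted p = 0.118).

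Among 25 lipoprotein receptors and lipid-handling genes besides Lsr, 13 were tested after deletion, 7 were called higher and 0 lower, with a median of 1.28, beside 30.3% and 26.4% of all genes. They included Lrp11 (5.44) and Lrp5 (3.09) of the LDL receptor-related family, the sorting receptor Sort1 (3.52) and the lipoprotein lipase gene Lpl (2.38). Against IgG 0 of 20 were called, where 3.03% of all genes were. Against uninjected embryos 4 of 21 were called higher and 0 lower, beside 17.5% and 10.4% of all genes, with Vldlr, the very-low-density lipoprotein receptor, at 2.58 (adjusted p = 0.00486), and with total counts only 1 and 1.

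The pathway of Ptgds was mostly below the filter. Of 27 other genes of prostaglandin synthesis, transport and reception, 5 were tested after deletion, 2 were called higher and 2 lower, beside 30.3% and 26.4% of all genes. The exporter Abcc4 (2.92) and the prostaglandin E2 receptor Ptger4 (1.55) were higher, and the carbonyl reductase Cbr1 (-1.50) and the prostaglandin E synthase Ptges3 (-0.83) were lower. Hpgd, which degrades prostaglandins, and Ptgdr, a receptor of prostaglandin D2, were detected in no deletion library and in no wild-type library. Of the 27 genes, 25 were detected in at least 1 deletion library and 17 in at least 1 wild-type library. Ptgs1, Ptgs2 and Pla2g4a were among those detected in deletion but not in wild type, and none went the other way. The deletion libraries were also more numerous and deeper. In anti-SMARCA5 embryos 1 of 11 was called higher against IgG, the phospholipase Pla2g6 (1.91), beside 1.73% of all genes, and none with total counts only. Against uninjected embryos 2 of 11 were called higher and 1 lower, beside 17.5% and 10.4% of all genes, and with total counts only 0 and 2. Of 17 other lipocalins, the protein family of Ptgds, 1 was tested and not called, and 10 were detected in no deletion library. At least 1 library had 7 of them detected in deletion and 4 in wild type, counted over each group. Without replicate 1, 0 genes of any of these lists were called in either anti-SMARCA5 comparison. Those fits called 0 of 9402 genes against IgG and 1 of 10544 against uninjected embryos, so the loss is not particular to the lists.

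Lists of stage and lineage were counted too. After deletion 1 of 20 tested 2-cell transcripts was called higher and 12 lower (30.3% and 26.4% of all genes), with a median of -1.86, but without replicate 1 the counts were 1 and 5 of 21 and the median 0.40. Obox3 fell by 3.87 and Dppa4 by 2.71 on the log2 scale. Of 19 trophectoderm and epithelial markers, 9 were tested, 4 were called higher and 3 lower, beside the same shares of all genes. Gata3 (4.29), Fgfr2 (3.98) and Gata2 (3.77) were higher, and the claudin Cldn6 (-3.18) was lower. In anti-SMARCA5 embryos 3 of 16 were called higher and 0 lower against IgG, where 1.73% and 1.3% of all genes were, and with total counts only 1 and 0. Against uninjected embryos 8 of 17 were called higher and 2 lower, where 17.5% and 10.4% were, and with total counts only 4 and 3. Gata3 was among those called higher, at 2.24 against IgG and 4.37 against uninjected embryos (edgeR adjusted p = 0.0324 and 0.000576). With total counts only Gata3 was called against uninjected embryos alone. Without replicate 1, 0 genes of this list were called in either comparison, in fits that called 0 of 9402 and 1 of 10544 of all tested genes.

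Many genes share the description that chose the 3. A class of 58 genes was not detected in 90% or more of wild-type libraries and was detected in 75% or more of deletion libraries. Lsr and Ptgds belong to it and 4932438H23Rik, detected in 67.9% of deletion libraries, falls outside. The median gene of the class was detected in 9.09% of wild-type, 82.1% of deletion, 40% of uninjected, 40% of IgG and 56.5% of anti-SMARCA5 libraries. In 20 of the 58, more than 50% of uninjected embryos had the gene. Of the class 20 were tested against IgG in anti-SMARCA5 embryos, 2 were called higher and 0 lower, where 1.73% of all genes were called higher. Against uninjected embryos 21 were tested, with 6 higher and 0 lower, where 17.5% of all genes were called higher. Without replicate 1, 0 were called in either, in fits that called 0 of 9402 and 1 of 10544 of all tested genes.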

How the data were processed

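The members and the gene lists were chosen with earlier results of these data known. The authors deposited 2 tables of raw read counts per gene, whole numbers that were not normalized. Per the submitters' processing notes, the tools include Trim Galore 0.6.5, cutadapt 2.3 and HISAT2 2.1.0 with build GRCm38; the strand setting of the counting is not given in the sources used here. Among low values odd counts outnumbered even ones (134662 cells held a 1, 30228 a 2), so intervals and limits from counts can be too narrow. The limits from 0 counts and the intervals of pooled ratios cover counting error only, those of detected shares are over libraries, and those of changes include the spread between embryos.

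Of each table's 25965 lines, those that shared 1 of 57 repeated identifiers were summed, which left 25900 genes. Libraries under 100000 counts were left out (19 embryos, among them all 6 IgG libraries of replicate 2), as were 3 wells without an embryo. CPM is scaled by a library's total. Comparisons used edgeR 4.0.16 in R 4.3.3 (TMM, filterByExpr, robust quasi-likelihood F test, Benjamini-Hochberg over all tested genes, threshold 0.05), fitted on the libraries of the groups compared. Intervals of changes are 95% normal intervals. Members that failed the filter are given from the fit without it. Alternatives were DESeq2 1.42.0, total counts only, no filter, other depth minimums, the replicate number as a block, left-out replicates and single wells. The fits were tested on simulated data. Named genes were the members, Smarca5, Trim21 and Gdf9, the 5 and 3 genes most like each member, neighbours within 100 kb, and up to 4 called genes per list and comparison; wells D02, H06, A10, G07, H05 and B07 were singled out after their values were seen.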

Additional observations from a re-analysis of the deposited data

Results flagged for a closer look

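Single libraries stood apart in 7 of the 21 sets of 4 to 10 libraries (1 gene, 1 group, 1 replicate number) in which the gap of the highest or lowest library was compared with the range. Chance flags about 1 in 20 such sets where values spread evenly about a centre, which does not hold for counts piled at 0: in 3 of the 7 sets 1 library had a count and all others had 0. Lsr was at 141.9 CPM in well D02 of anti-SMARCA5 replicate 2, against 42.0 in the next library, and at 23.3 CPM (5 counts of 214791) in well G07 of wild-type replicate 1, against 5.34. 4932438H23Rik was at 24.0 CPM in well A10 of IgG replicate 1, against 3.47, and at 32.2 CPM in well A02 of anti-SMARCA5 replicate 2, against 6.46. It was at 7.02 CPM in well B07 of wild-type replicate 1, and at 0.502 and 1.27 CPM (1 count each) in wells H08 and H04 of uninjected replicates 1 and 3, where each of the other libraries of the set was at 0.

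Among the 19 embryo libraries left out for depth, deletion well D08 of replicate 1 held 5 counts of Lsr and 5 of Ptgds in a total of 94536, and deletion well D05 of replicate 2 held 11 counts of Lsr in a total of 69056. The 3 wells without an embryo held 0 counts of each gene in totals of up to 1875.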

How the results depend on the processing

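A refit kept the result where direction and call were as reported. The changes of deletion against wild type have no call. For them a refit kept the result where the direction held and the size moved by under 1 SD of log2(CPM + 1) over the deletion libraries. Of 148 refits of the 15 changes, 132 did so. Those that did not, for Lsr in anti-SMARCA5 against uninjected embryos, were DESeq2 (1.12, adjusted p = 0.0237) and all libraries with a count (1.14, adjusted p = 0.0437), which made a call, as did leaving out replicate 3 (1.51, adjusted p = 0.0421); leaving out 1 replicate ranged from 0.78 to 1.51. For Lsr in IgG against uninjected embryos, total counts only turned the sign (-0.050), and leaving out 1 replicate gave -0.31 to 0.40. For 4932438H23Rik against uninjected embryos, leaving out 1 replicate ranged from 4.83 to 6.39 in anti-SMARCA5 and from 3.34 to 4.83 in IgG, where at least 500000 counts (4.35, adjusted p = 0.0512), the replicate block (4.27, adjusted p = 0.0559) and leaving out well A10 (3.50) ended the call; against IgG it was 2.44 without well A10. The replicate block changed no other call of these genes; the labels do not say that groups share a pool, and same-numbered libraries deviated together with correlations of 0.59 (anti-SMARCA5 and IgG), 0.09 (anti-SMARCA5 and uninjected), 0.43 (IgG and uninjected) and 0.54 (deletion and wild type). Drops of wells D02, H06, A10, G07, H05 and B07 alone were chosen after seeing the data. The deletion changes moved to 9.40 (4932438H23Rik without well B07) and 9.63 (Ptgds without wells A04, G05 and H05), and leaving out 1 replicate ranged from 4.66 to 8.88 for Lsr; 4932438H23Rik was at 10.5 without replicate 1 and failed the filter without replicate 2. The cause was not tested.

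Of 66 other detection limits or library sets, 17 left the exact interval, a change that a stricter or looser limit makes by construction. With more than 0 counts, Lsr was detected in 100% of anti-SMARCA5, Ptgds in 75% of IgG and 64.5% of anti-SMARCA5, and 4932438H23Rik in 74.2% of anti-SMARCA5 libraries. With more than 10 counts, Lsr was detected in 0% of wild-type and 71.0% of anti-SMARCA5, Ptgds in 0% of uninjected, 10% of IgG and 12.9% of anti-SMARCA5, and 4932438H23Rik in 25.8% of anti-SMARCA5 libraries. After thinning to 100000 counts, Lsr was detected in 45% of IgG and 58.1% of anti-SMARCA5, Ptgds in 82.1% of deletion, 20% of IgG and 25.8% of anti-SMARCA5, and 4932438H23Rik in 0% of wild-type libraries; without wells G05 and H05, Ptgds was detected in 0% of wild-type libraries. Over all genes, anti-SMARCA5 against IgG called 317 genes in edgeR, 1283 in DESeq2, 64 with total counts only, 2909 with the replicate block and 0 without replicate 1.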
